A study of Mus musculus with 7 samples.

Results

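The collagen chains outside type IV and the laminin chains were followed in mouse brain and mouse kidney, on the sense and on the reverse (antisense) strand. A probe set is a group of short DNA probes built to read a transcript. Some carry a suffix mark, a letter before _at in the name. Whether these also bind other transcripts was not tested. A probe set was a member by its only gene symbol in the platform annotation. That symbol had to begin with Col, a number, a and a number, or with Lama, Lamb or Lamc and a number. Every Col4a gene was left out. This gave 46 genes of the 18278 with a named probe set, of which 36 were collagen genes and 10 laminin genes. All 46 had a sense probe set (89 in all, 65 on the 430A array and 24 on the 430B array), and 7 had a reverse probe set.

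The study compared total RNA of whole dissected mouse brain with total RNA of dissected mouse kidneys, and the labels give no strain, age, sex, genotype or treatment. Brain RNA (8 micrograms per labelling) was hybridised to U74A and U74B arrays for antisense and to 430A and 430B arrays for sense transcripts. Kidney RNA (6.75 micrograms) went to U74A, U74B and 430 2.0 arrays, so for sense the array type and the tissue cannot be told apart. Some probe sets of the early U74 arrays were built in the wrong orientation and so bind RNA of the strand opposite to the annotated gene, and the antisense values come from those. Each group was 1 array, so no value below has a replicate error and no p-value is given; the number of arrays limits the precision.

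Collagens are secreted chains rich in glycine and proline, and the chains wind around each other into a helix. Fibril-forming collagens make the cables of connective tissue, and other families coat these fibrils, form beaded filaments or nets, or stay in the cell membrane. Laminins are cross-shaped proteins, each built of an alpha, a beta and a gamma chain, and with type IV collagen they form the sheet of the basement membrane. In kidney, basement membranes surround every tubule and form part of the glomerular filter, and fibrillar collagen lies between the tubules and around vessels. In brain, both families are known mainly from the meninges, the vessel walls and the choroid plexus, while some membrane-bound and fibril-associated collagens are made by neurons.

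Promoter sequences were available for 33 of the 46 genes in RefSeq's assembly GRCm38.p6. Those printed here are, by the ratio after flooring, the highest kidney-called genes among these, Col3a1, Lamb1 and Col1a2, and Col25a1, the only gene called higher in brain. Each runs from 250 bases before to 50 bases after the annotated start, on the plus strand. They lie at chr1:45311288-45311587 (Col3a1), chr12:31265043-31265342 (Lamb1), chr6:4505368-4505667 (Col1a2) and chr3:130180595-130180894 (Col25a1). Capitals mark matches on either strand to the CCAAT box (CCAAT or ATTGG), the TATA motif (TATAAA or TTTATA) and the GC box (GGGCGG or CCGCCC).
Col3a1: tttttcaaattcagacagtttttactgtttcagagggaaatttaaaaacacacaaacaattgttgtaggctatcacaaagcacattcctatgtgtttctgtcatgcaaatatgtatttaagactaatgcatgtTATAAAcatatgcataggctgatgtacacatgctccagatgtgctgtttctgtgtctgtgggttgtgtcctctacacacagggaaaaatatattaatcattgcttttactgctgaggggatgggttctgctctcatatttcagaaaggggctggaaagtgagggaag
Lamb1: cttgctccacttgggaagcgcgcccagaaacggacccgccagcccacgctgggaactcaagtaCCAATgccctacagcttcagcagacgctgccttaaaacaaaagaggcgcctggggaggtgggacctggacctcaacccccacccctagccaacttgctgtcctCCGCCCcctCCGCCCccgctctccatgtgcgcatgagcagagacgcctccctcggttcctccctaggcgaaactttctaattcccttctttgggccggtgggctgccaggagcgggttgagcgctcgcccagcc
Col1a2: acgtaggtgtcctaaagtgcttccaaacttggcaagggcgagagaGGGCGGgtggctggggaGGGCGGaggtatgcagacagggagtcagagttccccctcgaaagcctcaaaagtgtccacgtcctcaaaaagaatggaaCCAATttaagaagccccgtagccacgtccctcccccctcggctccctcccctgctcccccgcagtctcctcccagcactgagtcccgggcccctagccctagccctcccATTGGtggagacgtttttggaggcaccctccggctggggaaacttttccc
Col25a1: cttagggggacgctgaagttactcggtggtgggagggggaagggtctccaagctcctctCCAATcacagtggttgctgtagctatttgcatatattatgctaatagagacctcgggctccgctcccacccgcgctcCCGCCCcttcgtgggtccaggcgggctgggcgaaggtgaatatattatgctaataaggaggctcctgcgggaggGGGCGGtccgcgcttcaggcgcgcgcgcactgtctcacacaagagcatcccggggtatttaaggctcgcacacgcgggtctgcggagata

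The Col3a1 window held a TATA motif and neither of the other motifs. Those of Lamb1, Col1a2 and Col25a1 each held a CCAAT box and a pair of GC boxes, so the brain gene shared these letters with both kidney genes. Over the 37 promoters of the 33 genes, 21 (56.8%) held a GC box, against 35.7% of all 32851 promoters. A CCAAT box was found in 11 (29.7%, against 37.4%) and a TATA motif in 5 (13.5%, against 13.6%). Among the 12 promoters of genes called higher in kidney, 7 held a GC box, and among the 25 of the other members 14 did.

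Median signals of the sense arrays were 104 (430A), 121.5 (430B) and 38.8 (430 2.0), so brain and kidney were brought to a common level before a ratio was taken. Each brain array was centred on its median log2 ratio to the kidney array, over probe sets above the median of both (-0.84 for 430A and 2.11 for 430B). Signals under a floor, the higher median of the pair (186.4 on 430A and 27.9 on 430B, in units of the kidney array), were raised to it. A gene was read by the probe set of highest mean percentile, and a difference of 2-fold or more was called where brain or kidney exceeded the floor. Folds against a tissue under the floor are lower bounds, given as at least. The signals printed for a gene are those deposited, while sums over marker lists use brain signals after centring. The tissues carried their labelled markers: 10 of 10 neuron genes were higher in brain, and 8 of 9 proximal tubule genes in kidney, Lrp2 (311.7 in brain and 28.1 in kidney on 430B) being the exception. The pituitary hormone genes Gh (5129.1 in brain and 33.8 in kidney), Prl and Pomc were also high in the brain preparation.

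Collagens and laminins had more sense signal in kidney. Of the 46 genes, 34 (against 71.1% of all 18193 genes) exceeded the floor in brain, kidney or both. Of these 34, 17 (50%) were 2-fold or more higher in kidney, where 26.6% of all 12928 genes above the floor were. A single gene, Col25a1, was 2-fold or more higher in brain, where 18.1% of all genes were. The other 16 were within 2-fold and 12 were not above the floor. The median log2 ratio of brain over kidney was -1.10 over these 34 and -0.09 over all genes above the floor. Among the 26 collagens above the floor, 14 were higher in kidney, and among the 8 laminins 3 were, while 5 were within 2-fold. By the deposited signals alone, without centring or a floor, 23 of the 34 members read higher in kidney and 11 in brain. Both tissues were above the floor for 9 of the 17 kidney genes, and for the other 8 the fold is a lower bound. In whole tissue, fewer cells of a type and less RNA per cell cannot be told apart.

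**Figure D1:**
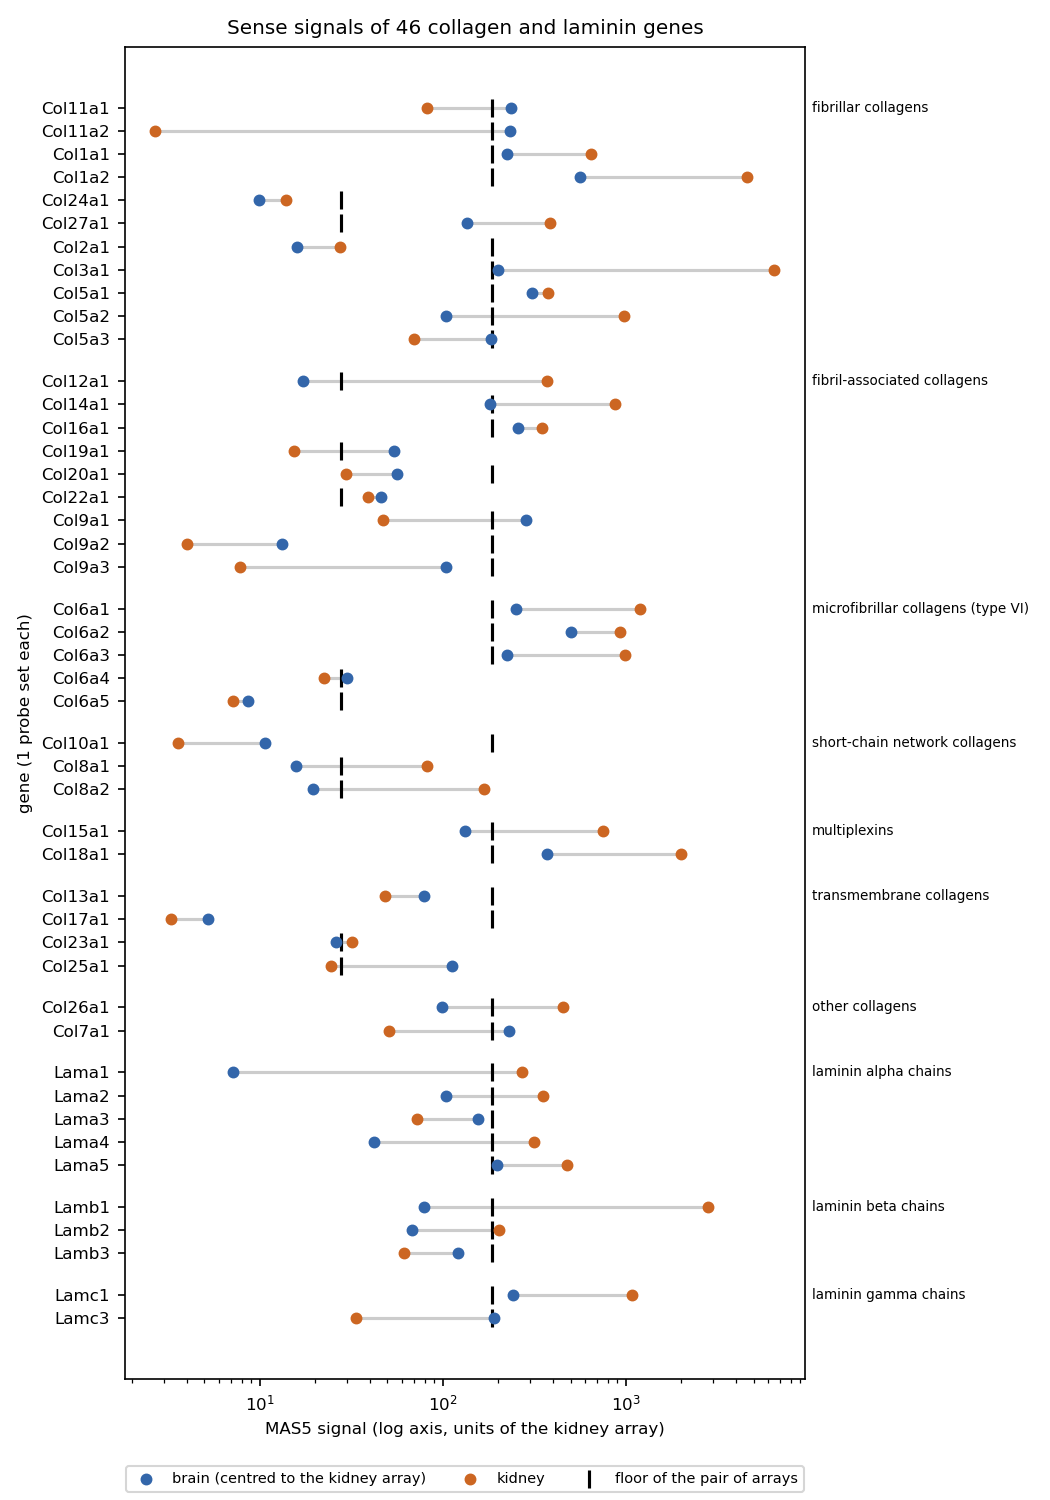
Sense MAS5 signals (log axis) of the 46 genes, with brain in blue after centring to the kidney array, kidney in orange and the floor of each pair of arrays as a black tick; genes are grouped by chain family. Col3a1, Col1a2 and Lamb1 have the kidney points farthest to the right, and 12 genes lie left of their floor in both tissues.

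Of the 8 fibril-forming collagens above the floor, 5 were higher in kidney and none in brain, with a median log2 ratio of -1.51. Col3a1, the type III chain of elastic tissue and vessel walls, read 112 in brain and 6505.9 in kidney, 32.4-fold higher in kidney after centring. Its second probe set read 55.6 and 1695.9, at least 9.10-fold. Col1a2, a chain of type I collagen, read 316.1 and 4578.4 (8.08-fold), and another of its probe sets 102.5 and 3274.1. Its partner chain Col1a1 read 126.2 and 643.3 (2.84-fold) and, on another probe set, 91.3 and 1373.8 (at least 7.37-fold). Its call was lost under a 75th percentile floor (log2 ratio -0.49). With the floor at the median, both chains of type I collagen were thus 2-fold or more higher in kidney on each probe set above it.

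Type V collagen sits in the core of type I fibrils and sets their width. Its chain Col5a2 read 58.4 in brain and 978 in kidney, a difference of at least 5.25-fold. Col5a1 was within 2-fold on the probe set that represents it (171.1 and 374.7), while another read 107.2 and 661.4, a 3.44-fold difference. Col5a3 was not above the floor in either tissue (103.1 and 70). Type XI collagen, the fibril core of cartilage, did not lean to kidney: Col11a1 read 132.7 and 82.7, and Col11a2 130.5 and 2.7. Neither Col11a1 nor Col11a2 reached 2-fold against the floor. Col2a1, the main cartilage collagen, read 8.9 and 27.4 and was under the floor, as was Col24a1 (43.2 and 13.9).

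Col27a1, another fibrillar chain, was called higher in kidney (2.85-fold), but its direction rested on the scaling. Its signals as deposited were 586.4 in brain and 386.8 in kidney on 430B. The log2 ratio was -1.51 with 430B centred by itself, 0.11 with 430B brought to the 430A scale and 0.60 as deposited.

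Among the fibril-associated collagens, which bind to the surface of fibrils, the members fell on both sides. Col12a1 read 74.7 in brain against 374 in kidney, at least 13.4-fold higher in kidney on 430B. That call rests on 1 of its 4 probe sets. The others were under the floor in both tissues, at 56.8 and 57.3 on 430A, and at 5.5 and 7.8 and 5.4 and 4.5 on 430B. With signals as deposited the log2 ratio of Col12a1 shrank from -3.75 to -1.63, still past 2-fold. Col14a1, the closest relative of Col12a1, read 101.4 and 877.2 (at least 4.71-fold), although a probe set without a suffix mark read 27.9 and 292.7 and stayed under 2-fold against the floor. With the floor at the 75th percentile the log2 ratio of Col14a1 was -0.93 and the call was lost. Col16a1 was within 2-fold (145 and 347.9).

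Col19a1, Col9a1 and Col22a1 were above the floor in brain without reaching 2-fold. Col19a1, a collagen with a known part in the formation of hippocampal synapses, read 233.8 in brain against 15.5 in kidney, at least 1.94-fold. Col9a1, a cartilage and eye collagen, read 158.8 and 47.1 (at least 1.53-fold), and Col22a1, a collagen of tissue junctions, 199.4 and 39.3 (1.17-fold). The log2 ratio of Col22a1, 0.23, turned to -0.07 with quantile normalization. Col9a2, Col9a3 and Col20a1 were under the floor in both tissues.

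Type VI collagen forms beaded filaments close to cell surfaces, and its classical chains are Col6a1, Col6a2 and Col6a3. Col6a1 read 140 in brain and 1197.2 in kidney, 4.77-fold higher in kidney. Col6a3 read 124.9 and 991.8, a 4.43-fold difference of much the same size. Col6a2 read 279.3 and 929.5, which is 1.86-fold and under the threshold, while its other probe set read 220.1 and 1441.6 (3.66-fold). The later-found chain Col6a4 read 129.4 and 22.5 and did not differ by 2-fold after centring, and Col6a5 was under the floor.

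The network-forming type VIII chains, known from vessel walls and the cornea, were both called higher in kidney on 430B. Col8a2 read 84.7 in brain and 167.6 in kidney, and Col8a1 68 and 82.7. Those folds, at least 6.01 and at least 2.97, rested on centring 430B by itself. Brought to the 430A scale, Col8a2 was under 2-fold (log2 ratio -0.96) and Col8a1 under the floor. With the floor at the 75th percentile the call of Col8a1 was lost too (log2 ratio -0.45). Col10a1, the collagen of hypertrophic cartilage, read 6 and 3.6.

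The multiplexins, collagens of basement membrane zones that carry sugar chains, were higher in kidney. Col18a1, the source of the fragment endostatin, read 207.5 in brain and 2005.9 in kidney (5.39-fold), and its other probe set 99.5 and 1295.5 (at least 6.95-fold). Col15a1 read 73.8 and 748.9, at least 4.02-fold, a call lost with the floor at the 75th percentile (log2 ratio -0.71). Of the remaining secreted collagens, Col26a1 read 55.4 and 453.6 (at least 2.43-fold). Col7a1, which anchors the skin's basement membrane, read 129.1 and 50.7, not 2-fold against the floor.

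The transmembrane collagens, which keep their N-terminal end in the cell, held the only call towards brain. Col25a1, made by neurons and known as a component of amyloid plaques, read 486.9 in brain and 24.7 in kidney on 430B, at least 4.04-fold. Its 430A probe set read 190.6 and 28.7, at least 1.83-fold against the higher floor of that array. The direction was the same under all alternatives, but the call was lost with the floor at the 75th percentile and on 430A alone. Col23a1 read 112.7 and 31.9 and was within 2-fold after centring. Col13a1 (44.3 and 48.5) and Col17a1, a collagen of hemidesmosomes (2.9 and 3.3), were under the floor.

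Among the laminins, Lamb1, Lamc1 and Lama5 were called higher in kidney. Lamb1, a beta chain found in many laminins, read 44.4 in brain against 2830.1 in kidney (at least 15.2-fold), and on 2 more probe sets 26.8 and 1383.6 (at least 7.42-fold) and 43.6 and 227.1 (at least 1.22-fold). Lamc1, the most widely used gamma chain, read 134.5 and 1081.9, 4.49-fold higher in kidney. Lama5, the alpha chain of the adult glomerular basement membrane, read 110 and 480.6 (2.44-fold) and on another probe set 34.8 and 220.9 (at least 1.19-fold). Its call was lost with the median of its probe sets (log2 ratio -0.77) and with the floor at the 75th percentile (-0.07).

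The other alpha chains were dim in brain and near the floor in kidney, so the floor bounded their folds. Lama1, known from embryonic and tubular basement membranes, read 4 in brain against 271.2 in kidney, at least 1.46-fold. Lama4, a chain of vessel walls, read 23.4 and 315.1 (at least 1.69-fold), and Lama2, a chain of muscle and nerve, 58 and 353.5 (at least 1.90-fold). Without a floor, and with signals as deposited, Lama1, Lama2 and Lama4 were all more than 2-fold higher in kidney. Lamb2, a beta chain of the glomerular basement membrane, read 38 and 204.2. Lamc3 read 107.2 and 33.6 and lay at the floor after centring. Lama3 (87.1 and 72.9) and Lamb3 (68.1 and 61.4), chains of the epidermal laminin, were under the floor in both tissues.

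The 12 members under the floor read at most 103.1 in brain and 72.9 in kidney, and no direction is given for them. They were Col2a1, Col5a3, Col6a5, Col9a2, Col9a3, Col10a1, Col13a1, Col17a1, Col20a1, Col24a1, Lama3 and Lamb3.

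Probe sets of the same gene gave a partial check that needs no second array. For 13 members, more than 1 probe set was above the floor, and for all 13 of these genes the ratios lay on the same side of 0. Where the lower tissue was under the floor, that side was set by which tissue passed it. Probe sets under the floor were left out, among them a Lamb1 probe set that read 73.2 in brain and 13.8 in kidney. As deposited, the ratios of 12 of the 13 genes lay on the same side of 0. Both Col27a1 probe sets then leaned to brain (log2 ratios 0.60 and 0.89). None of the 13 had probe sets beyond 2-fold in opposite directions after centring, but Col23a1 did as deposited, with log2 ratios from -3.49 to 1.82. Sizes differed between probe sets. After centring, the spread within a gene had a median of 1.12 on the log2 scale, and 8 of the 13 spread by over 2-fold. A repeat reading of the same brain RNA on 430A and 430B used 98 probe sets that lay above the median of both arrays. They read higher on 430B by a median log2 of 1.33, and around that offset the SD was 0.25. That SD covers bright probe sets only. The offset served to bring 430B to the 430A scale. With each array centred by itself, the shifts (-0.84 and 2.11) lay further apart than this offset.

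**Figure D2:**
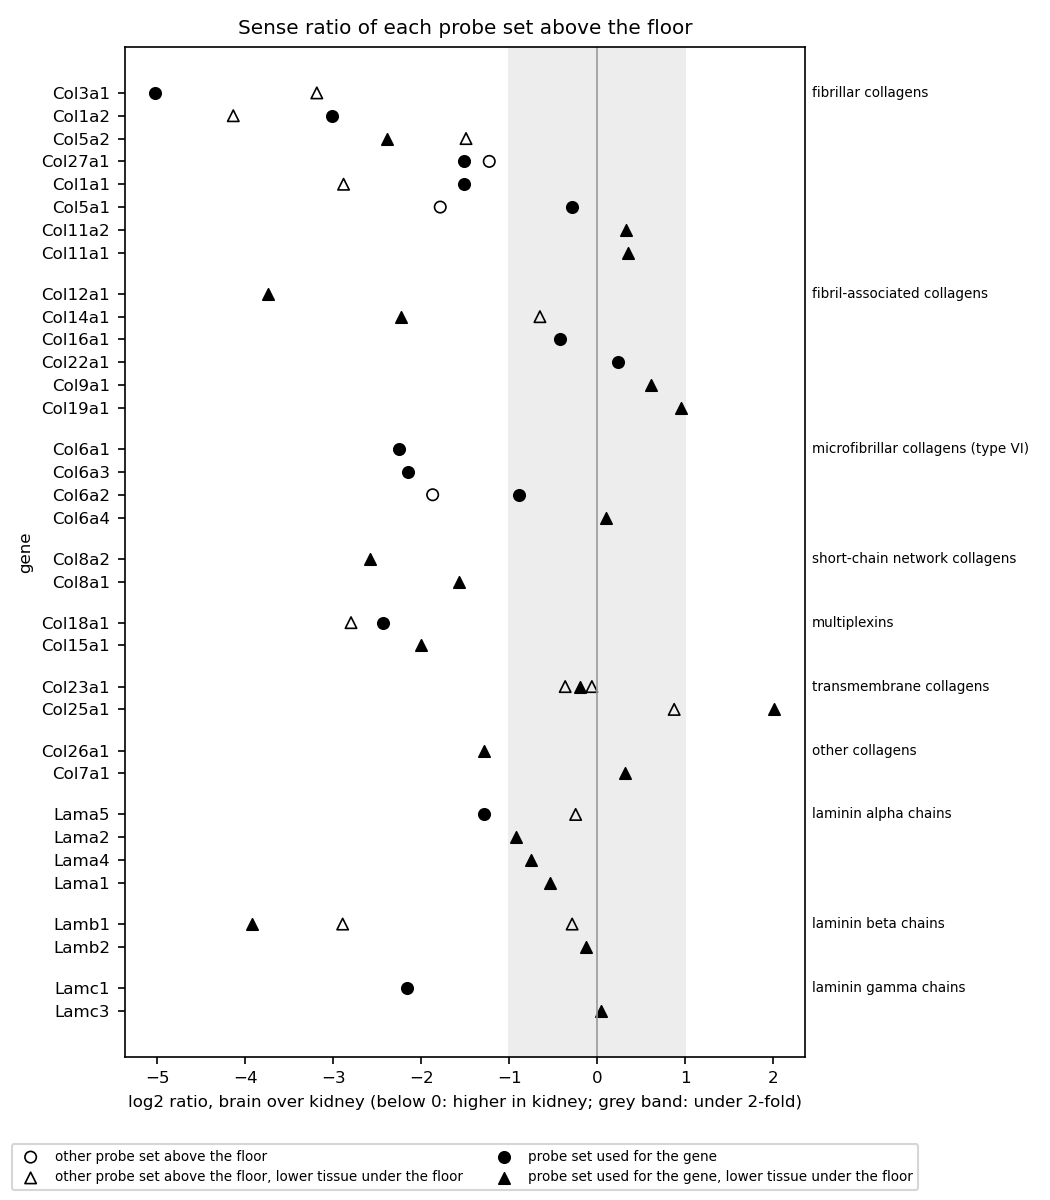
Log2 ratio of brain over kidney for each sense probe set above the floor, by gene and chain family, with the probe set used for the gene filled, triangles where the lower tissue lay under the floor, and the range under 2-fold in grey. Most points lie left of 0, and Col25a1 is the only gene with a point right of the grey band.

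The scaling of the arrays decided part of these counts. With signals as deposited 20 of 31 members were higher in kidney, against 26.6% of all genes above the floor. With 430B on the 430A scale 14 of 32 were, against 15.7%, and with quantile normalization 18 of 34, against 23.3%. Col25a1 was the only brain call among the members in each. Of the 17 kidney genes, 14 were called under all of these scalings, and Col27a1, Col8a1 and Col8a2 were not. Over all genes, 430B on the 430A scale turned the balance to 3328 brain and 1957 kidney calls, from 2343 and 3438. The median over all genes went from -0.09 to 0.29, and relative to that median the members stood at -1.20, against -1.01 with each array centred by itself. Of the 35 members read on 430A 13 were higher in kidney, and of the 11 read on 430B 4 were. On 430A alone, 13 of 26 members above the floor were higher in kidney, against 19.7% of all genes there. On 430B alone 4 of 9 were, against 32.4%. On 430B alone, the median of the 9 members above the floor was -0.16, against -0.27 for all genes there.

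**Figure D3:**
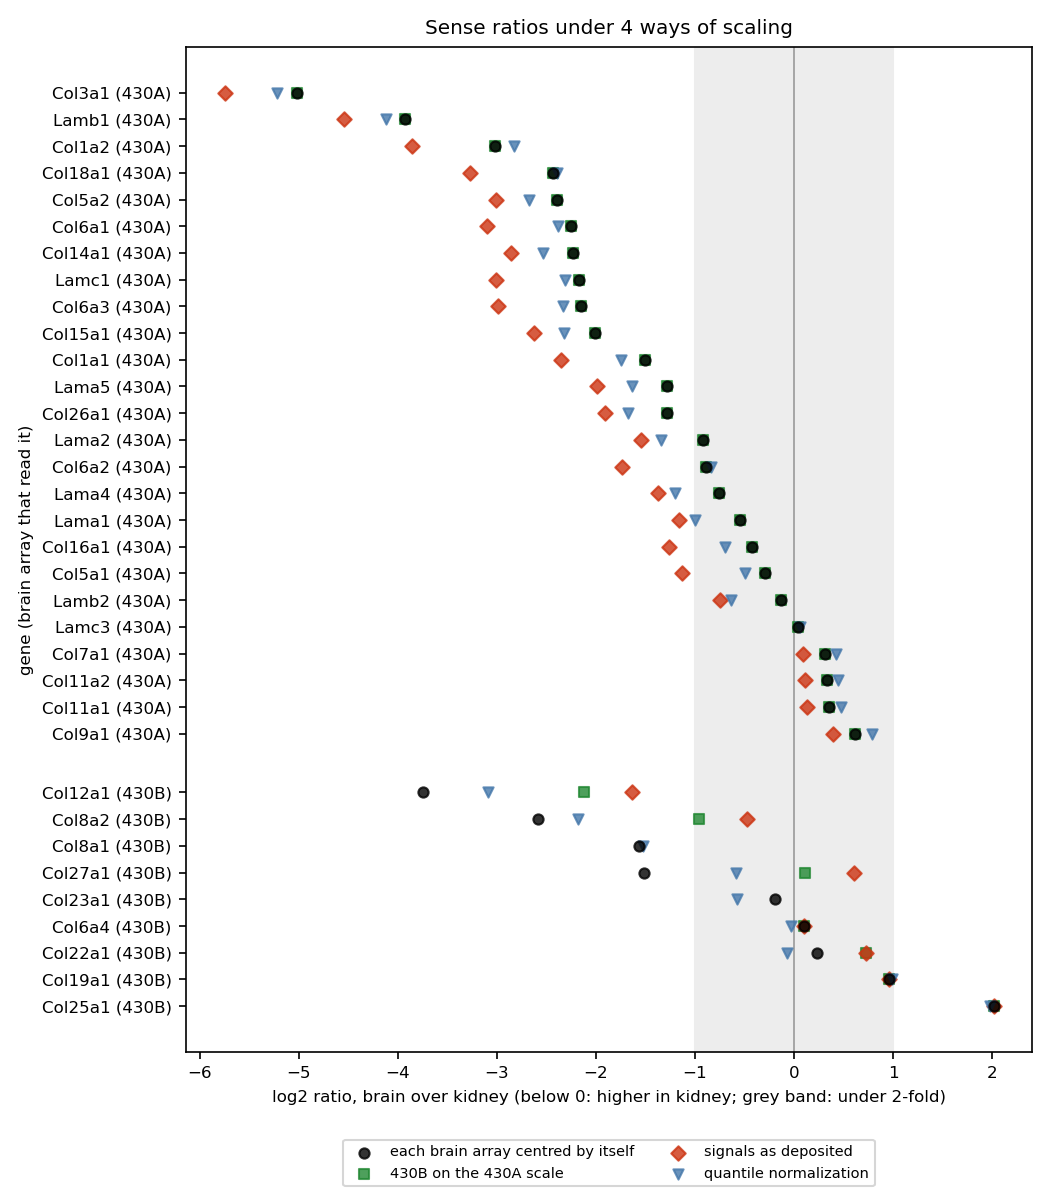
Log2 ratio of brain over kidney of the 34 members above the floor, by the brain array that read them, under 4 ways of scaling; grey marks under 2-fold. The 430A genes called higher in kidney stay left of the grey band throughout, while Col27a1 crosses 0 and Col8a2 enters the band.

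Genes that fold, trim, bind or sense these chains were counted from lists. Of 17 other basement membrane components, 12 were called for kidney and 1 for brain, with a median log2 ratio of -2.01. Frem1 (50.6 in brain and 527.6 in kidney) and the integrin ligand Npnt (141.8 and 4736.1) were among them. The exception was Hspg2, the core protein of the heparan sulfate proteoglycan perlecan, at 756.8 and 345.7 (3.92-fold higher in brain). Type IV collagen itself, which was not among the members, gave 4 of 5 in kidney and none in brain.

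Of 16 genes of collagen folding and modification, 8 were called for kidney and none for brain, with a median of -1.05. Serpinh1, the collagen chaperone, read 165.5 in brain and 3333.3 in kidney (11.2-fold). The prolyl hydroxylase P3h2 read 447.8 and 1281.4 on 430B, 12.4-fold with 430B centred by itself. Its log2 ratio of -3.63 became -2.00 with 430B on the 430A scale and -1.52 as deposited, still past 2-fold. Of 6 trimming and crosslinking genes, 2 were higher in kidney. They were Pcolce, which speeds the trimming of procollagen (64.7 and 3280.8), and the crosslinking enzyme Loxl1 (98.6 and 1121.7). None was higher in brain, but Adamts3 was with signals as deposited and with 430B on the 430A scale. Of 11 fibril partners, 6 were higher in kidney and none in brain, among them the matrix protein Postn (39.4 and 1124) and the small proteoglycan Bgn (168.5 and 2012.9).

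Of 16 receptor genes, 7 were higher in kidney and 1 in brain, with a median of -0.32. As deposited, 7 of 13 were higher in kidney and the median was -1.27. The kidney genes included Itga1, an integrin chain that binds collagen (10.8 and 678.6), and Itga6, an integrin chain that binds laminin (119.8 and 2399.2). In brain the only call was Sgcb, a sarcoglycan (277.5 and 155.7), which was lost with signals as deposited. Of 8 degradation genes, 4 were higher in kidney, including the protease Ctsl (684.9 and 6649.4) and the gelatinase Mmp2 (131.2 and 956.9). The protease inhibitors Timp4 (363.2 and 26) and Timp2 (1680.2 and 1487.3) were higher in brain, Timp2 not with signals as deposited. A few genes stand in more than 1 list.

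**Figure D4:**
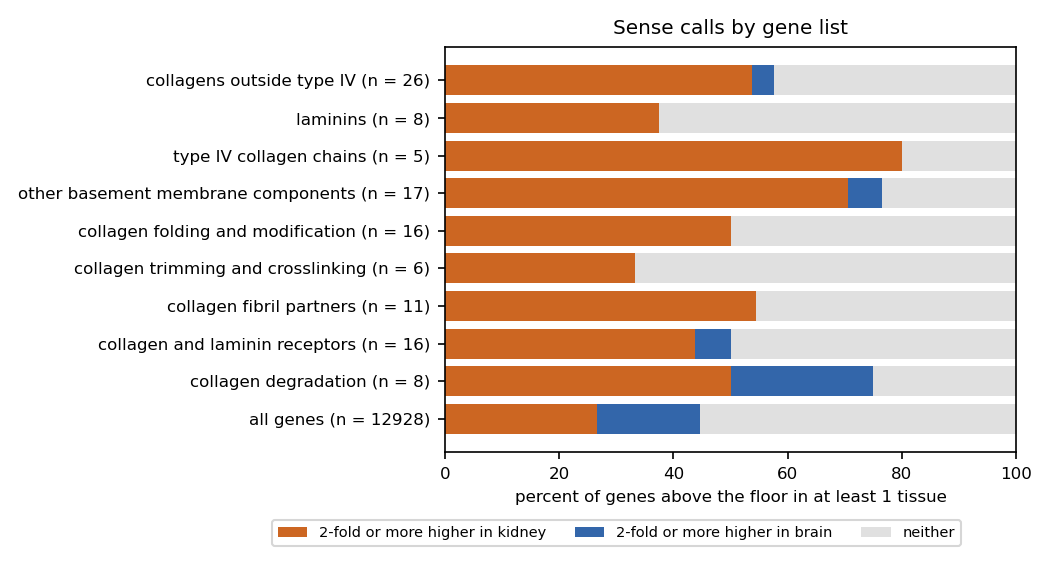
Percent of genes above the floor that were 2-fold or more higher in kidney (orange), in brain (blue) or in neither (grey), for the collagens, the laminins, their partner lists and all genes; n is the number above the floor. The orange share is 26.6% for all genes, and in each list shown it is larger.

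Cell types that make these chains were read from marker lists, and their part in the ratios was not tested. Whether a marker is specific to its cell type in both tissues was not tested either, so the counts are not counts of cells. All sums given here use brain signals after centring, not as deposited. Of 8 mural cell markers above the floor, 5 were higher in kidney and 1 in brain, with a median log2 ratio of -1.54. Their summed signal over all 11 was 3709 in brain and 10877 in kidney. As deposited, 4 of 9 were higher in kidney and the median was -0.61. Abcc9 (253.1 and 241.4 on 430B) was not called as deposited or with 430B on the 430A scale. Of 11 endothelial markers, 6 were higher in kidney and none in brain, with sums over all 12 of 1906 and 5215. Flt1 was called for brain with signals as deposited and with 430B on the 430A scale, and as deposited 9 of the 11 were higher in kidney. Of 6 fibroblast markers, 2 were higher in kidney and none in brain, with sums over all 10 of 3325 and 6118. Clec3b, Mfap5, Pi16 and Scara5 were under the floor in both tissues. Of 10 meningeal markers, 3 were higher in kidney and 1, Ptgds, in brain, with sums over all 11 of 8925 and 8660. Without Ptgds these sums were 1357 in brain and 7521 in kidney, and as deposited 7 of the 10 were higher in kidney. The largest kidney signals on this list were those of Cdh1 (22.6 in brain and 2607.7 in kidney) and Slc47a1 (32.7 and 1785.5). Of 7 choroid plexus markers, 6 were higher in kidney and none in brain. The largest ratios were those of Calml4 (57.2 in brain and 4137.2 in kidney) and Aqp1 (62.7 and 3718.1), while Ttr was within 2-fold (5014 and 5593.3). Of 7 podocyte markers, 3 were higher in kidney and 1 in brain. Of 10 cartilage and bone markers and 11 of skeletal muscle, 3 and 1 were above the floor. Of 9 keratinocyte markers, 3 were above it in brain and none in kidney. Of 6 fat markers 2 were above it in kidney, Fabp4 (24 in brain and 4989.2 in kidney) and Adipoq.

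Antisense signal was read for 7 members. Of these 7, 2 exceeded the floor in brain or kidney (the higher 75th percentile of the pair, 63.5 on U74A and 98.5 on U74B), where 34.5% of all 2915 genes with a reverse probe set were. Neither was called at 2-fold, where 19.9% of all 1007 genes above the floor were called higher in brain and 4.67% in kidney. Col18a1 read 107.3 in brain against 36.7 in kidney, at least 1.69-fold higher in brain. Col17a1 read 95.2 and 35.2, a log2 ratio of 0.58 against the floor. Both were thus above the floor in brain alone. Without a floor in the ratio both passed 2-fold towards brain, as did 38.5% of the 1007 genes.

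The other reverse probe sets stayed under the floor. Col16a1 came nearest, at 85.6 in brain and 92.2 in kidney on U74B, with Col5a2 at 21.3 and 81.5. On U74A, Col11a1 read 27.7 and 4.9, Col6a1 5.6 and 25.8, and Lamb3 7.9 and 3.4. The reverse probe sets of Col18a1, Col11a1, Col6a1 and Lamb3 carry the suffix mark _f_at, and those of Col17a1, Col16a1 and Col5a2 carry none.

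**Figure D5:**
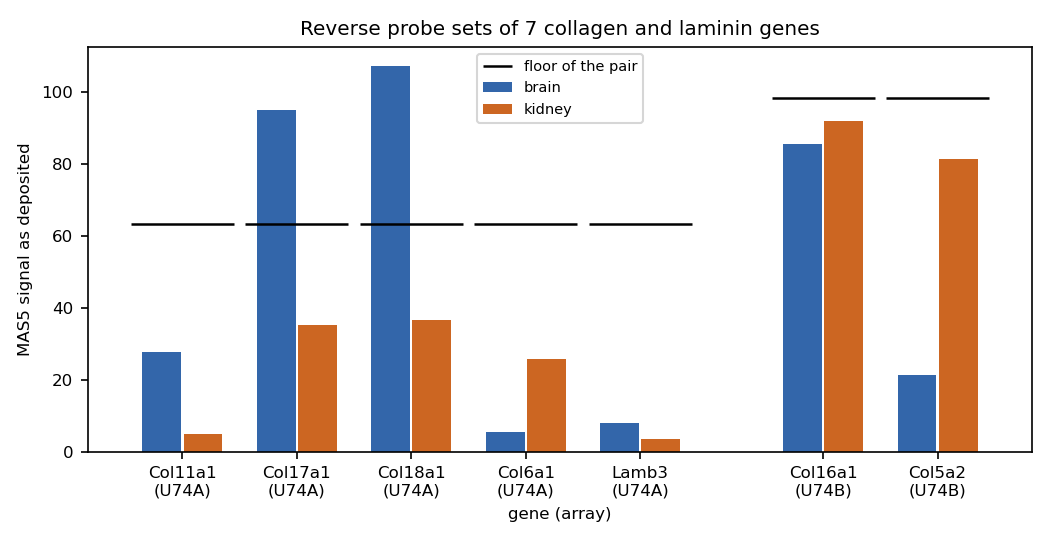
MAS5 signals as deposited (linear axis from 0) of the 7 reverse probe sets in brain (blue) and kidney (orange), with the floor of each pair of arrays as a line. The brain bars of Col17a1 (95.2) and Col18a1 (107.3) are the only bars above their line.

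Setting sense and antisense side by side within a tissue used percentiles within each array, which do not remove differences in binding between probes. In brain, 1 of the 7 genes had both strands above the floor (sense above the median and antisense from the 75th percentile of its array), where 20.2% of all 2830 genes with both kinds of probe set did. It was Col18a1, at percentile 69.7 on the sense array and 85.8 among reverse probe sets. In kidney none of the 7 had both, where 25.0% of all genes did. There, 6 of the 7 were above the median of the kidney sense array (38.8), as were 2369 of all 2830 genes. That bar is lower than the 186.4 floor of the sense ratios. Lamb3 (61.4) and Col11a1 (82.7) were among the 6 but under that floor. Col18a1 stood at percentile 96.9 for sense and 72.5 for antisense in kidney. Col17a1 was the reverse case in brain, at percentile 2.54 for sense and 83.7 for antisense.

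The gene next to the end of each member in GRCm38.p6 was looked up where the strands of both were known, for 6 of the 7. Col18a1 and Col17a1 each end close to a gene on the opposite strand that runs towards them, Slc19a1 and Slk. Slc19a1, a folate carrier, read 214.7 in brain and 971.9 in kidney on the sense arrays, and the kinase Slk 227.5 and 549. Lamb3, whose reverse probe set was under the floor, also has such a neighbour, Camk1g, while Col16a1, Col6a1 and Col11a1 do not. Over all genes, such a neighbour within 5 kb was found for 131 of the 662 with antisense above the floor and for 249 of the 1248 below it. The 5 kb limit was chosen after the neighbours had been seen.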

How the data were processed

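Total RNA of mouse brain and kidney was read on 7 Affymetrix arrays, 1 per group. The submitters' processing notes name MAS5, and each deposited value is its linear signal intensity; the scaling target and detection calls are not given in the sources used here. Of the U74 arrays only probe sets that the Affymetrix mask marks as reverse were deposited, per the labels. Symbols came from GEO's platform annotation and were updated through the gene identifier to RefSeq GRCm38.p6 (20351 of 20380 probe sets with 1 symbol matched on 430A, 14486 of 14661 on 430B, 1547 of 1552 on U74A and 1741 of 1763 on U74B).

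Sense pairs were centred and floored as described above, and the 100 probe sets on both brain arrays were used once, from 430A. Antisense pairs were used as deposited. Control probe sets for RNA quality were not used here. Genes were named if called, if they had a reverse probe set, or, within the partner lists, among the 2 largest calls each way; members with neither call are given in their family. The members and lists were chosen with earlier results of these data known. The counting was tested on simulated data. Python 3.11.15, numpy 2.4.6 and pandas 2.3.3 were used. Alternatives covered the scaling, the floor, the probe set that stands for a gene, suffix-marked probe sets and each brain array alone.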

Additional observations from a re-analysis of the deposited data

Results flagged for a closer look

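Col18a1 was the only member above the floor on both strands, and its strands leaned to different tissues. Its sense signal was 5.39-fold higher in kidney (log2 ratio of brain over kidney -2.43), while its reverse probe set was at least 1.69-fold higher in brain (log2 ratio 0.76). The sense ratio was taken after centring and the antisense ratio from signals as deposited. Over all 1007 reverse genes above the floor the median antisense log2 ratio was 0.35. With the antisense pair centred, the ratio of Col18a1 was 0.70 and the median of all genes 0.08. The difference between the strands was not tested, and the antisense ratio did not reach 2-fold against the floor. The antisense value rests on 1 probe set, which carries the suffix mark _f_at. Without suffix-marked probe sets Col18a1 had no antisense value.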

How the results depend on the processing

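No paired analysis was possible because each group holds 1 array. The main values were 17 members higher in kidney, 1 higher in brain and a sense median of -1.10 over 34 members. Without a floor, 7 of 34 members were higher in brain, against 27.2% of all genes, and the median was -1.68. The added brain genes were Col7a1, Col9a1, Col11a1, Col11a2, Col19a1 and Lamc3. With the floor at the 75th percentile, 18 members were left, of which 11 were higher in kidney and 0 in brain. Of all genes left there, 28.2% were higher in kidney and 12.45% in brain. On 430A alone 0 of 26 were higher in brain, against 19.4% of all genes. On 430B alone 4 of 9 were higher in kidney, against 32.4%, and the median was -0.16. With signals as deposited the median was -1.54. The other sense counts stayed within 1.5 times and the other medians within the repeat SD of 0.25. Of the called genes, Col27a1 alone turned direction, to 0.60 as deposited and 0.11 with 430B on the 430A scale. Of the 17 kidney genes, 10 kept the call under every alternative that gave them a value, Col26a1 being without one in some. With the floor at the 75th percentile the calls of Col1a1, Col14a1, Col15a1, Col8a1 and Lama5 were lost. Col26a1 was under that floor and so was not called there, and it had no value without suffix-marked probe sets.

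For antisense, both members above the floor passed 2-fold in brain without a floor (2 genes, median 1.49, against 0 and 0.67). In that setting 38.5% of all 1007 genes were higher in brain, and their median was 0.71, against 0.35 in the main setting. With the floor at the 90th percentile neither was left, so that setting has no median. Without suffix-marked probe sets 1 was left, Col17a1. The count of members with both strands above the floor in brain, 1 in the main setting, was 3 with reverse probe sets taken from the median, and 0 from the 90th percentile or with sense from the 75th percentile. In kidney it was 4 with reverse probe sets from the median, against 0. No share of all genes is given for these alternative counts.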
